A study of Mus musculus with 4 samples.

Results

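Clustered histone genes were taken as every gene of the deposited matrices whose symbol starts with Hist1h, Hist2h, Hist3h or Hist4h, which gave 67 of 31053 genes. They comprise 6 linker histone (H1) genes, 18 H2A, 18 H2B, 12 H3 and 13 H4 genes. Of these, 54 have a Hist1 symbol and lie on chromosome 13, 10 have a Hist2 symbol (chromosome 3), 2 a Hist3 symbol (chromosome 11) and 1 a Hist4 symbol (chromosome 6). Single-cell RNA was counted in 4 libraries made with the 10x Genomics Chromium 3′ kit, in which each captured RNA molecule is counted once, by its molecular tag (UMI), whatever its length. In all groups, cells bearing CD31, an endothelial surface protein, and lacking CD45, a protein of blood cells, had been sorted from the aorta-gonad-mesonephros region (AGM) of mouse embryos at embryonic day 10.5. This region holds the embryonic aorta, from whose wall blood stem cells first bud. The groups were 2 libraries of miR-223-/- embryos (KO), which lack a microRNA abundant in myeloid blood cells, and 2 libraries of age-matched wild-type embryos (WT). The labels give neither the design of the miR-223 allele nor the embryos or litters behind each library, so the spread among these 4 libraries may be technical. The edgeR p-values below use variance estimates that borrow from all genes. They therefore do not measure the spread of a single gene among the 4 libraries, nor the spread among embryos.

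Histones package DNA: pairs of H2A, H2B, H3 and H4 form the nucleosome core, and H1 binds the linker DNA beside it. The clustered genes are the main source of histone protein while DNA is copied in S phase of the cell cycle. Most of their mRNAs carry no poly(A) tail and end just after a short hairpin that the protein SLBP binds, whereas oligo-dT priming, on which the 3′ kit relies, captures poly(A) RNA. Some clustered genes also make longer transcripts that end in a poly(A) tail, so the counts below are levels of captured RNA and need not follow the levels of all histone mRNA.

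The libraries held 109713066 and 167542930 UMIs in KO replicates 1 and 2, and 95158639 and 181682389 in WT replicates 1 and 2. Levels are given as UMIs of a gene per 1000000 UMIs of the same cells of that library (CPM). After filters on cell quality and doublets, 4124 and 5862 KO cells and 2294 and 6869 WT cells remained, with a median of 20151 and 18630.5 UMIs per KO cell and 30200 and 18125 per WT cell. Any 2 libraries shared 8 to 28 cell barcodes. Clusters made without the histone genes were named from marker genes, and 2894 and 4881 KO cells and 1673 and 5837 WT cells were endothelial-like. In these cells a list of 12 pan-endothelial genes summed to 5430 and 5470 CPM in KO and 5810 and 5260 CPM in WT, and Ptprc, which encodes CD45, had 0 or 1 UMI per library. Mesenchymal-like cells (531 and 252 KO, 345 and 231 WT), which the sort selects against, and germ-cell-like cells (90 and 151 KO, 44 and 147 WT) were the next classes with enough cells in every library for tests by phase. The mesenchymal list summed to 1370 to 1790 CPM in the mesenchymal-like cells and 8.44 to 12.8 CPM in endothelial-like cells. Each cell was called G1, S or G2/M from lists of 44 S phase and 52 G2/M genes that contain no clustered histone. In endothelial-like cells the S share was 30.9% and 27.6% in KO and 30.3% and 27.1% in WT, and the G1 share 16.9% and 28.2% in KO and 21.8% and 27.7% in WT. Between 14.7% and 16.1% of the cells lay near a limit between phases, and 39.6% to 53.7% had both scores above 0 and were called by the higher score. F630028O10Rik, the host transcript of miR-223, had 260 and 654 UMIs over all barcodes in the KO libraries and 10 and 60 in the WT libraries. A 3′ tag need not lie in the deleted part, so it does not check the labels, and miR-223 itself was not analysed here.

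Clustered histone RNA was captured, mostly from few genes. Of the 67 genes, 66 had at least 1 UMI and Hist1h2bq had none, while 3 had 1 to 10 UMIs, 8 had 11 to 100, 31 had 101 to 1000 and 24 had over 1000. Together they held 325022 UMIs, at 506 and 558 CPM over all barcodes of the KO libraries and 572 and 669 CPM of the WT libraries. The 3 highest genes took 53.4% of these UMIs and the 12 highest 87.0%. The linker histone gene Hist1h1b (ENSMUSG00000058773) had 95247 UMIs (29.3%), followed by the H2A genes Hist1h2ap (ENSMUSG00000094777) with 44270 (13.6%) and Hist1h2ae (ENSMUSG00000069272) with 34145 (10.5%). By family, H1 genes held 44.2% of the UMIs, H2A genes 30.8%, H4 genes 11.8%, H2B genes 9.51% and H3 genes 3.75%. The H1 share thus came from 6 genes and the H3 share from 12.

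**Figure D1:**
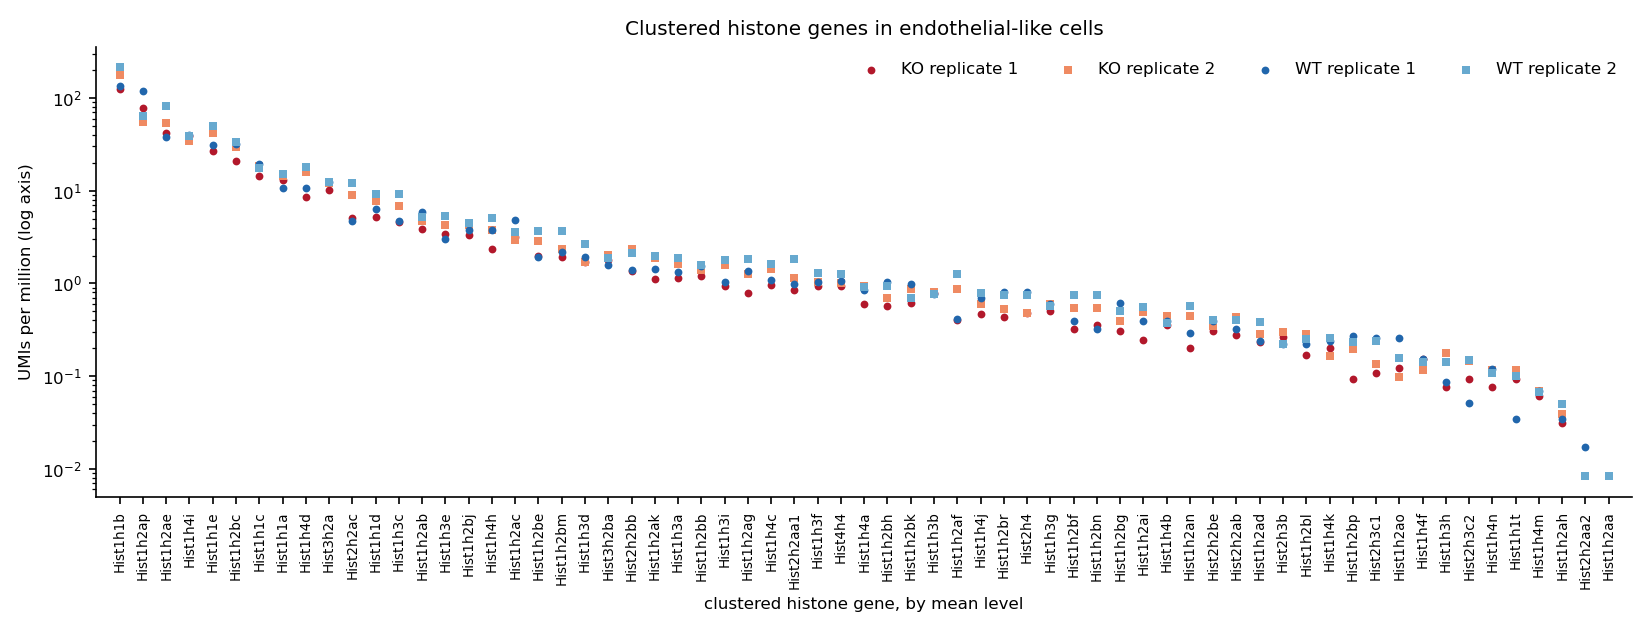
Level of each clustered histone gene with a UMI in endothelial-like cells (65 genes), in CPM on a log axis, ordered by mean level; each point is 1 library, and libraries with no UMI have no point. Hist1h1b leads with a mean of 163 CPM, ahead of Hist1h2ap (78.9 CPM) and Hist1h2ae (54.1 CPM), and most genes lie below 10 CPM.

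To see what the captured genes have in common at their ends, the longest coding transcript of each was read from GENCODE M21 (mouse build GRCm38), a copy that may differ from the annotation used for counting. The hairpin (16 bases, a 6-pair stem and a 4-base loop) was found in 43 of the 67 genes, against 130 of all 21901 coding genes (0.594%). A poly(A) signal (AATAAA or ATTAAA) lay within the last 50 bases of 17 of the 67, against 77.9% of coding genes. Coding genes were counted if any of their coding transcripts held the feature, so the shares are not like for like. The 67 also include genes annotated to the stop codon only, whose ends could not be read. The annotated transcript went on for over 60 bases past the hairpin in 23 genes, and for over 300 bases in 18, while 20 ended within 60 bases of it. The sites below show the hairpin in capitals for some captured genes that the results turn on, then the poly(A) signal in capitals for some where one was found. Hist1h2ae, Hist1h1c and Hist3h2a, shown by their signal only, also hold a hairpin, 151, 840 and 1643 bases before the annotated end.
Hist1h2ap hairpin, chr13:21833026-21833055, minus strand, 3 bases before the annotated end: aaaaaaaaaaaGGCTCTTTTCAGAGCCatc
Hist1h1e hairpin, chr13:23621775-23621804, minus strand, 1153 bases before the end: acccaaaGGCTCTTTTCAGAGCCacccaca
Hist1h4i hairpin, chr13:22040959-22040988, minus strand, 330 bases before the end: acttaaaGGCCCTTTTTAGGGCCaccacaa
Hist3h2ba hairpin, chr11:58949342-58949371, plus strand, 169 bases before the end: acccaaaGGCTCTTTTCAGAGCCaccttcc
Hist1h2ae poly(A) signal, chr13:23570521-23570550, minus strand: ttctccAATAAAtgggtcaatttttttcag
Hist1h4i poly(A) signal, chr13:22040636-22040665, minus strand: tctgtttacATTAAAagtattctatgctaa
Hist1h1c poly(A) signal, chr13:23740336-23740365, plus strand: gcttctAATAAAaagcgtttagttttcatt
Hist3h2a poly(A) signal, chr11:58956791-58956820, plus strand: atgcccAATAAAataagagtacgtgtataa
Hist3h2ba poly(A) signal, chr11:58949501-58949530, plus strand: ggtattAATAAAtttggttcaattttggcc
A run of 12 A, the longest of the Hist1h2ap transcript, lies directly before its hairpin, 19 bases from the annotated end. Hist1h1b, the highest gene, is annotated to its stop codon only, as are 12 others, so its end could not be read. Hist1h2bc (1156 bases in 2 exons) and Hist1h1a (741 bases) hold neither a hairpin nor a signal near the end in their annotated transcripts.

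Captured levels are set beside these features as a description, with no test. The median was 861 UMIs over the 43 genes with a hairpin. Of the 24 genes without one, 13 are annotated to their stop codon only, so that no hairpin could be found there, and had a median of 274, while the 11 annotated past it had 354. Among these 11, Hist1h2af and Hist1h2ah go on for only 1 and 2 bases, which leaves no room for a hairpin either. The median was 608 UMIs over the 17 genes with a poly(A) signal near the end and 555.5 over the 50 without, those annotated to the stop codon only included. It was 1735 over the 23 genes that go on for over 60 bases past the hairpin and 622 over the 20 that end within 60 bases of it. Many members are near copies of each other: in 26 genes over 50% of all 91-base windows of the transcript also occur in another gene, and in 6 genes none do. The share was 92.3% for Hist1h2ap, 66.3% for Hist1h2af, 59.8% for Hist1h2bn and 53.5% for Hist1h2ab, so how their counts split between copies is uncertain. It was 0% for Hist1h1b and Hist1h1a, 5.65% for Hist1h1c, 8.21% for Hist3h2ba, 17.1% for Hist1h4i, 26.0% for Hist1h2bc and for Hist1h1e, 30.1% for Hist3h2a and 31.8% for Hist1h2ae. It reached 100% for Hist1h2bq, which had no UMI, Hist2h2aa2 (3 UMIs) and Hist2h3c1 (162 UMIs). A low count of such a gene does not show that its RNA was absent.

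Clustered histone RNA was lowest in G1 and higher in S and G2/M in every library. Summed over all members, endothelial-like cells of KO replicates 1 and 2 had 126 and 141 CPM in G1, 577 and 662 CPM in S and 422 and 633 CPM in G2/M. WT replicates 1 and 2 had 153 and 161 CPM in G1, 588 and 783 CPM in S and 586 and 754 CPM in G2/M. No S or G2/M value overlapped a G1 value, and S was 3.83 to 4.86 times G1 within a library. At 5000 UMIs per cell, a histone UMI was seen in 72.7% and 71.4% of S cells of KO and 71.8% and 74.7% of WT, against 41.0% and 46.5% of G1 cells of KO and 49.6% and 49.5% of WT. Among 51 members that passed the filter on low counts, 46 rose in S over G1, where 33.6% of all 13628 genes did, and 3 fell, where 32.5% of all genes did (edgeR quasi-likelihood test with library as a block, Benjamini-Hochberg adjusted p under 0.05). The median log2 change was 2.06 over these members and -0.01 over all genes. The edgeR changes are computed after TMM scaling, which adjusts the total of each sum, so they can differ from ratios of the CPM values. Hist2h2ab and Hist2h2be did not pass, and the other 16 members were too rare for the test.

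**Figure D2:**
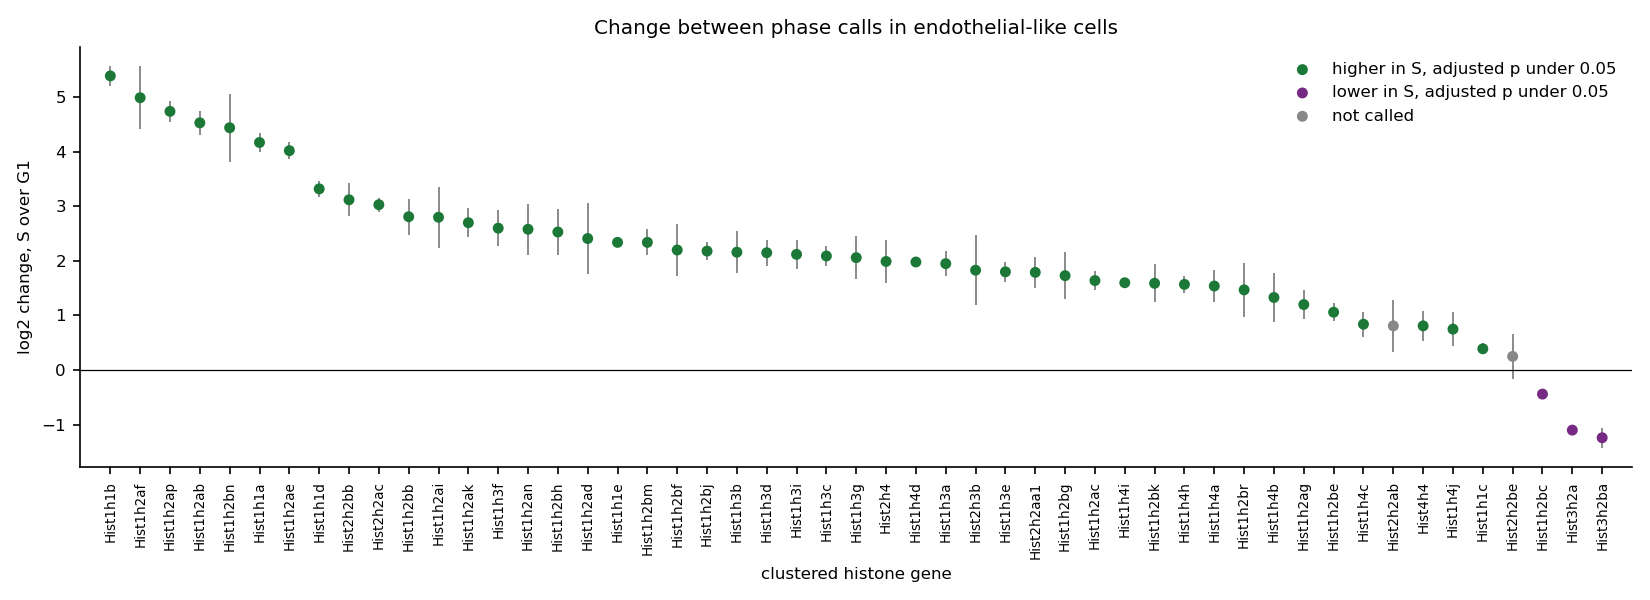
Log2 change of each tested clustered histone gene between S and G1 calls in endothelial-like cells (51 genes, edgeR, bars are standard errors), ordered by change. The 46 green points are genes that rose, from Hist1h1c at 0.39 to Hist1h1b at 5.39, and the 3 purple points are Hist1h2bc, Hist3h2a and Hist3h2ba, which fell.

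All 5 linker histone genes tested rose in S by edgeR, by very unequal amounts. Hist1h1b, which encodes H1.5, had 189 and 249 CPM in S cells of KO and 171 and 288 CPM of WT, against 3.37 and 6.45 CPM in G1 cells of KO and 5.73 and 7.90 CPM of WT. Every S value was far above every G1 value, and the log2 change was 5.39 (SE 0.18, edgeR adjusted p = 1.59e-07), the largest of all members. Hist1h1a (H1.1) rose by 4.17 (SE 0.17, edgeR adjusted p = 7.33e-11), with 20.9 and 22.5 CPM in S cells of KO and 14.2 and 23.5 CPM of WT, against 0.953 to 1.62 CPM in G1. Hist1h1d (H1.3) rose by 3.32 (SE 0.15), and Hist1h1e (H1.4) by 2.34 (SE 0.06, edgeR adjusted p = 4.99e-27). Hist1h1e had 31.6 and 48.4 CPM in S cells of KO and 34.2 and 55.5 CPM of WT, against 7.02 and 10.3 CPM in G1 cells of KO and 7.74 and 12.2 CPM of WT. Hist1h1c, which encodes H1.2, differed least: it had 15.6 and 17.2 CPM in S cells of KO and 17.5 and 16 CPM of WT, against 13.1 and 13.3 CPM in G1 cells of KO and 17.8 and 13.1 CPM of WT. The G1 and S values of Hist1h1c overlap across libraries, and in WT replicate 1 its CPM was slightly lower in S. The edgeR log2 change, with library as a block, was 0.39 (SE 0.10, edgeR adjusted p = 0.00413). The testis linker histone gene Hist1h1t, known from spermatocytes, was too rare to test, with 95 UMIs over all barcodes.

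Of the 14 H2A genes tested, 12 rose in S and 1 fell, with a median log2 change of 2.64. Hist1h2ap had 103 and 70.3 CPM in S cells of KO and 140 and 78.9 CPM of WT, against 4.18 and 1.5 CPM in G1 cells of KO and 7.21 and 3.97 CPM of WT, a log2 change of 4.74 (SE 0.19, edgeR adjusted p = 4.29e-07). Replicate 1 of each genotype was the higher of its pair in both phases. Hist1h2ae had 56.7 and 71.6 CPM in S cells of KO and 44.3 and 107 CPM of WT, against 4.66 to 6 CPM in G1, and rose by 4.02 (SE 0.15, edgeR adjusted p = 2.49e-07). Here replicate 2 was the higher of each pair. Hist1h2ab rose by 4.53 (SE 0.22) and Hist2h2ac by 3.03 (SE 0.13). Hist1h2af had 100 UMIs in S cells and 2 in G1 cells over the 4 libraries, a ratio of 31.0 in CPM (95% counting interval 8.35 to 259). The exception was Hist3h2a, with 7.32 and 7.82 CPM in S cells of KO and 8.56 and 7.89 CPM of WT, against 17.7 and 18.2 CPM in G1 cells of KO and 18 and 19.4 CPM of WT. It fell by a log2 change of 1.10 (SE 0.07, edgeR adjusted p = 6.85e-18), and none of its S and G1 values overlap.

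Of the 14 H2B genes tested, 11 rose and 2 fell, with a median log2 change of 1.96. Hist1h2bc, the highest H2B gene, had 22.7 and 26.7 CPM in S cells of KO and 32.1 and 30.7 CPM of WT, against 34.8 and 40.5 CPM in G1 cells of KO and 45.3 and 46.3 CPM of WT. It was lower in S in all 4 libraries (log2 change -0.44, SE 0.05, edgeR adjusted p = 8.46e-09). Hist3h2ba, on chromosome 11 beside Hist3h2a, had 1.38 and 1.55 CPM in S cells of KO and 1.21 and 0.906 CPM of WT, against 2.83 and 3.59 CPM in G1 cells of KO and 2.33 and 3.39 CPM of WT, and fell by a log2 change of 1.24 (SE 0.18, edgeR adjusted p = 6.56e-08). Both members with a Hist3 symbol were therefore lower in S than in G1 in every library. Hist1h2bn, with 69 UMIs in S cells and 2 in G1 cells, had a ratio of 21.4 in CPM (95% counting interval 5.69 to 180).

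The 9 H3 and 9 H4 genes tested all rose in S. The H3 genes kept within a narrow span of log2 changes, 1.80 for Hist1h3e to 2.60 for Hist1h3f, ends picked after their values were seen. The H4 genes had a median log2 change of 1.54. Hist1h4i had 48.4 and 39.8 CPM in S cells of KO and 43.1 and 46.1 CPM of WT, against 14.8 and 14.6 CPM in G1 cells of KO and 18.8 and 16.3 CPM of WT, and rose by 1.60 (SE 0.07, edgeR adjusted p = 4.17e-14). Hist1h4d rose by 1.98 (SE 0.09), with 10.1 and 17.0 CPM in S cells of KO and 10.9 and 18.5 CPM of WT, against 2.83 and 4.13 CPM in G1 cells of KO and 3.50 and 5.58 CPM of WT.

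**Figure D3:**
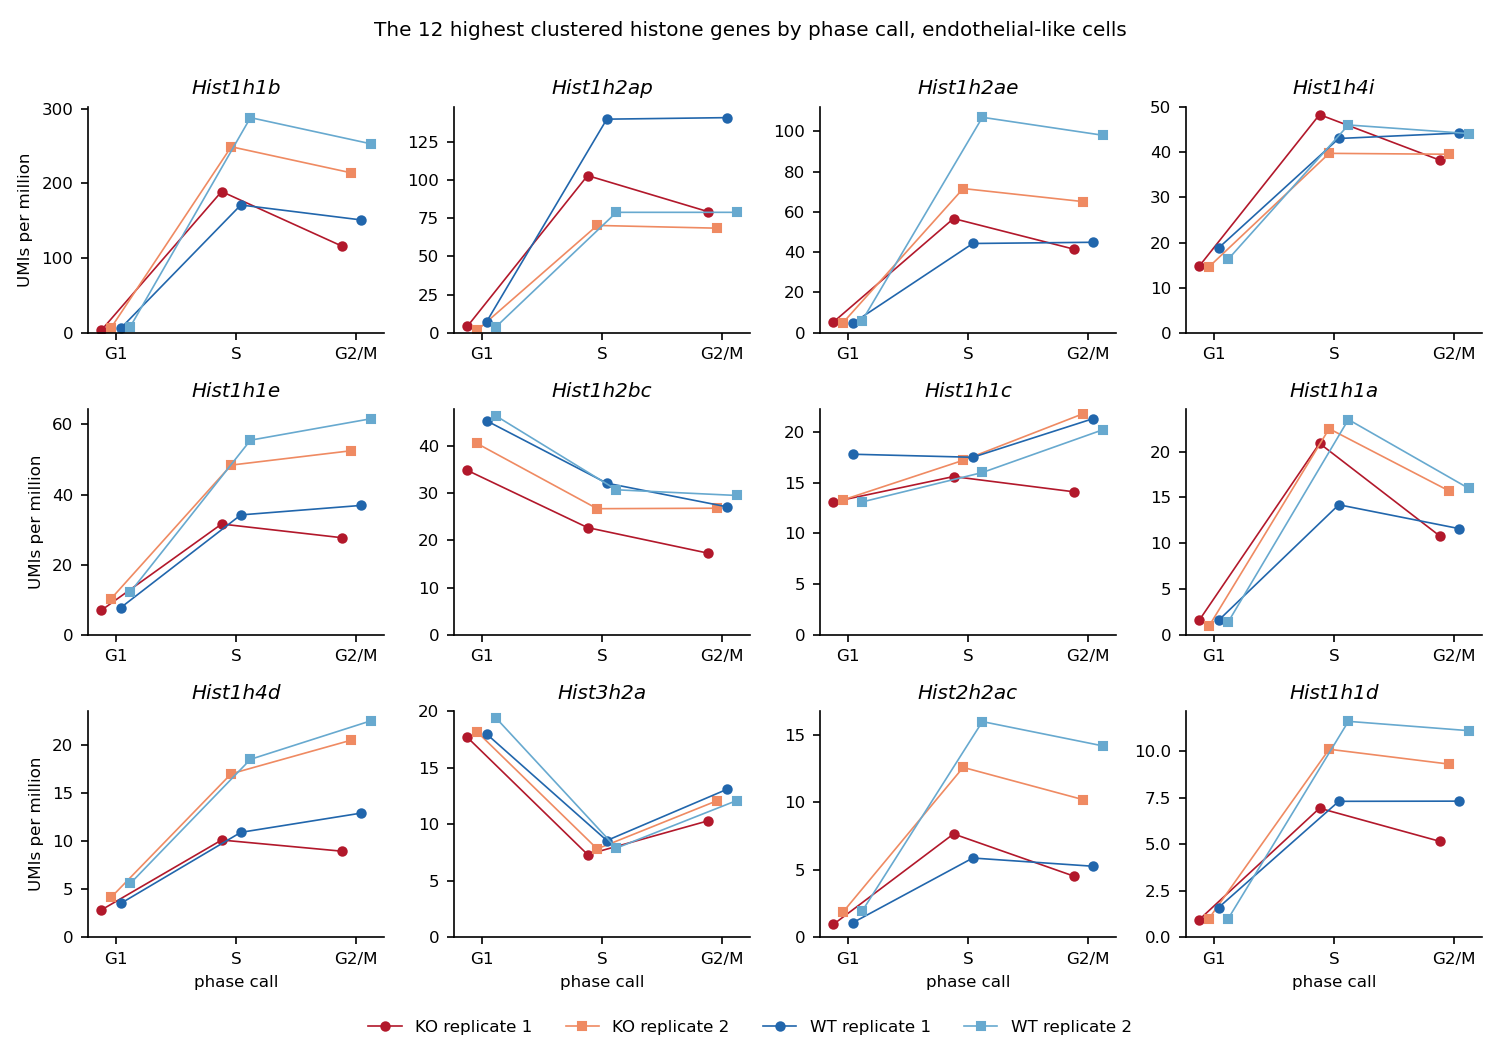
Level of the 12 highest clustered histone genes in endothelial-like cells called G1, S and G2/M, in CPM, 1 line per library with each vertical axis from 0. Hist1h1b and Hist1h2ap are near 0 in G1 and high in S and G2/M, whereas Hist1h2bc and Hist3h2a are highest in G1 in all 4 libraries.

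G2/M over G1 gave the same counts as S over G1: 46 of 51 members rose, where 35.1% of all genes did, and 3 fell, where 34.4% did, with a median of 2.16. The log2 change was 5.08 for Hist1h1b, 4.65 for Hist1h2ap, 0.62 for Hist1h1c, -0.59 for Hist1h2bc, -0.51 for Hist3h2a and -0.80 for Hist3h2ba. Between S and G2/M the members did not stand out. Of 51 tested, 6 were higher in S, where 20.5% of all genes were, and 6 were lower, where 21.3% were, with a median log2 change of -0.06 against 0.01 over all genes. Hist1h1a was the clearest of those higher in S, at 20.9 and 22.5 CPM in S cells of KO and 14.2 and 23.5 CPM of WT, against 10.8 and 15.7 CPM in G2/M cells of KO and 11.6 and 16 CPM of WT (log2 change 0.59, SE 0.08, edgeR adjusted p = 7.48e-05). Hist3h2a was lower in S, where it had 7.32 to 8.56 CPM, than in G2/M, where it had 10.3 to 13.1 CPM (log2 change -0.59, edgeR adjusted p = 2.17e-10). Hist1h1b passed at 0.31 (SE 0.09, edgeR adjusted p = 0.0300), but not under every alternative. The number that passed was 4 with DESeq2 (Hist1h1a, Hist1h1b and Hist2h2ac higher, Hist3h2a lower), 7 without KO replicate 2 and 5 without WT replicate 2.

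Without phase calls, the histone sum followed the S phase list. When the endothelial-like cells of each library were split into 10 equal groups by their UMIs of the S phase list, the sum was 903 and 1249 CPM in the highest group of KO and 1018 and 1369 CPM in that of WT. It was 146 and 156 CPM in the lowest group of KO and 180 and 172 CPM in that of WT. When cells were instead placed on a circle by both phase scores (0 degrees the direction of the S score, 90 degrees that of the G2/M score), the sum was lowest at 255 degrees in each library, at 124 and 146 CPM in KO and 154 and 161 CPM in WT. It was highest at 15 degrees in replicate 1 of each genotype, with 823 CPM in KO and 1052 CPM in WT, and at 45 degrees in replicate 2, with 1315 CPM in KO and 1497 CPM in WT. Hist1h2bc ran the other way, highest at 165 to 225 degrees.

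**Figure D4:**
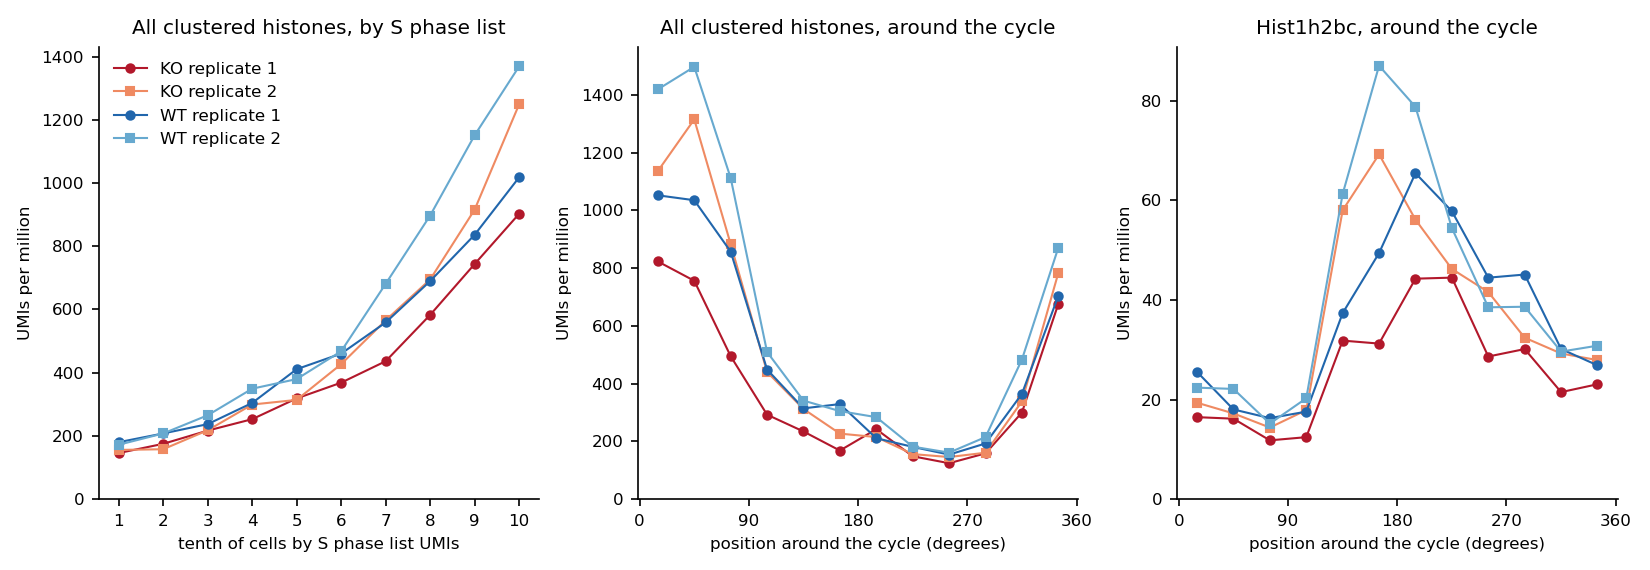
Summed clustered histone CPM in endothelial-like cells by 10 equal groups of cells ordered by S phase list UMIs (left) and by position around the cycle in bins of 30 degrees (middle, 0 degrees is the S score direction and 90 degrees the G2/M score direction), and Hist1h2bc by the same position (right); each line is 1 library. The sum is highest between 15 and 45 degrees and lowest at 255 degrees in all 4 libraries, while Hist1h2bc is highest at 165 to 225 degrees.

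Promoters of 61 of the 67 genes were matched in RefSeq (GRCm38.p6, 250 bases before to 50 after the start), and 4 short motifs were searched on both strands, each counted whether or not it overlapped another. CCAAT, the core of the CCAAT box, was in 52 of 61 (85.2%, against 37.4% of all 32851 promoters), in every H1, H2A, H2B and H3 promoter matched and in 3 of 12 H4 promoters. TATAAA, a form of the TATA box, was in 35 (57.4%, against 13.6%). ATTTGCAT, the octamer, was in 14 (23%, against 1.74%), 7 of 17 H2A and 7 of 16 H2B genes. AAACACA, known as an H1 element, was in 9 (14.8%, against 7.18%), 5 of them among the 6 H1 genes. The windows of some neighbouring genes on opposite strands overlap, so a single site can count for both genes. Such pairs among the genes with the octamer are Hist1h2ae and Hist1h2bg, Hist1h2ah and Hist1h2bk, and Hist1h2aa and Hist1h2ba. The promoters of 3 genes are shown because these genes differ in direction between phases, Hist1h1b and Hist1h2ae higher in S than in G1 and Hist3h2ba lower, with matches to the 4 motifs or their reverse complements in capitals.
Hist1h1b, chr13:21780576-21780875, minus strand: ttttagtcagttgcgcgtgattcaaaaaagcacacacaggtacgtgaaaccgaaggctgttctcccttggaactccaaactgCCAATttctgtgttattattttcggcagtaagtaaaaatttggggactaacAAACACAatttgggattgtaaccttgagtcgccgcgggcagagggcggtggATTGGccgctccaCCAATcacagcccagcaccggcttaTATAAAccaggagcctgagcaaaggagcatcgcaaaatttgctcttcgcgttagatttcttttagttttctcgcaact
Hist1h2ae, chr13:23571171-23571470, minus strand: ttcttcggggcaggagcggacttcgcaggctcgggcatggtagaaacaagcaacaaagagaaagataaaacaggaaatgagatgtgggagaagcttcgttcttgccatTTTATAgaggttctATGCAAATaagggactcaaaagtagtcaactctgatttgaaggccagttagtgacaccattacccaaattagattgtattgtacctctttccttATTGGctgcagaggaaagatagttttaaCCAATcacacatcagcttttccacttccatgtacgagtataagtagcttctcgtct
Hist3h2ba, chr11:58948661-58948960, plus strand: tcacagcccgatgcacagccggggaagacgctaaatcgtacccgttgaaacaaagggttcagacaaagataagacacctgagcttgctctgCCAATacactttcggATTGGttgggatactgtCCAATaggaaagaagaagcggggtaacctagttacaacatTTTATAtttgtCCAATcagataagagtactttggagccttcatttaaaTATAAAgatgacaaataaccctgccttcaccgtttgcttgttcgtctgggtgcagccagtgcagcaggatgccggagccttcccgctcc
On either strand, all 3 hold TATAAA and CCAAT, 3 times CCAAT for Hist1h1b, 2 times for Hist1h2ae and 4 times for Hist3h2ba. AAACACA is in that of Hist1h1b and ATTTGCAT in that of Hist1h2ae. In Hist1h2ae both TATAAA and ATTTGCAT occur only as reverse complements. They lie in the part of its window that is shared with Hist1h2bg on the opposite strand, so they need not belong to Hist1h2ae.

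Other genes of histone supply differed between S and G1 as well, with smaller median changes. Genes used to call phases were left out of these lists. The shares to read the counts against are those of all genes above, 33.6% that rose and 32.5% that fell. Of 10 genes listed as replication-independent histone variants, a name for histones also made outside S phase, 8 rose in S over G1 and 1 fell (median log2 change 0.37). H2afz, the H2A.Z variant, had 3010 and 2550 CPM in S cells of KO and 2540 and 2650 CPM of WT, against 1640 and 1380 CPM in G1 cells of KO and 1460 and 1440 CPM of WT (log2 change 0.99, SE 0.03). H3f3a, a gene of variant H3.3, was the 1 that fell, with 1830 and 1810 CPM in S cells of KO and 1890 and 1760 CPM of WT, against 2170 and 2040 CPM in G1 cells of KO and 2100 and 1990 CPM of WT. H3f3b, which also encodes H3.3, was among those that rose, by 0.17 (SE 0.02, edgeR adjusted p = 1.58e-10). It had 1190 to 1260 CPM in S and 1130 to 1230 CPM in G1. Of 14 genes of histone transcription and 3′ end processing, 10 rose and 1, Lsm10 of the U7 particle, fell (median 0.38). Eri1, an exonuclease that trims histone mRNA ends, rose by 1.12 (SE 0.04) and Lsm11, also of the U7 particle, by 0.90. Of 19 histone chaperones and modifiers of new histones, 17 rose and the other 2 did not pass (median 0.76), among them Chaf1a of chromatin assembly factor CAF-1 by 2.43 (SE 0.05), Dnajc9 by 1.86, the acetyltransferase gene Hat1 by 1.81 and Nap1l1 by 0.83. Chaf1a had 79.2 and 71.7 CPM in S cells of KO and 70.7 and 73.6 CPM of WT, against 17.5 and 15.4 CPM in G1 cells of KO and 14.7 and 13.4 CPM of WT. Its log2 change was below those of Hist1h1b, Hist1h2ap and Hist1h2ae. By CPM, some genes counted as risen by edgeR hardly differed. Over the 4 libraries Ubn1 had means of 102 CPM in G1 and 100 CPM in S, and H2afv 311 and 312 CPM.

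Arterial-like cells, a part of the endothelial-like class, had 354 and 218 CPM of clustered histones in S cells of KO and 169 CPM in WT replicate 2, WT replicate 1 having under 10 such cells. These S values were 1.12 to 2.77 times those of G1, while G2/M was 4.45 to 6.24 times G1. The order of S and G2/M thus differed in arterial-like cells from that over all endothelial-like cells, a difference that was not tested. The S values rest on 42 and 31 KO cells and 24 cells of WT replicate 2, in a class of which 69.6% to 86.4% were called G1. How many of these S calls are G1 cells was not tested. In sinusoidal-or-lymphatic-like cells, where S was 3.14 to 4.56 times G1, 10 of 17 members tested rose in S over G1, where 10.6% of all 9647 genes did, and 1 fell, where 8% did (median log2 change 1.55). Hist1h1b rose there by 3.89 (SE 0.35, edgeR adjusted p = 0.000156), Hist1h2ap by 3.69 and Hist1h2ae by 3.15, and Hist1h2bc fell by a log2 change of 0.88 (SE 0.16, edgeR adjusted p = 1.17e-05).

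In mesenchymal-like cells most members tested also rose in S over G1, and the histone sum in S was higher than in endothelial-like cells in every library. In G1 it was higher in 3 libraries but not in WT replicate 2. Their histone sum was 1128 and 1083 CPM in S cells of KO and 1155 and 1329 CPM of WT, against 329 and 200 CPM in G1 cells of KO and 216 and 156 CPM of WT. The G1 values rest on 28 and 23 KO cells and 18 and 10 WT cells. Of 28 members tested, 17 rose in S over G1, where 12.3% of all 11094 genes did. With edgeR 0 fell, where 7.41% of all genes did, 0 of the lower ones had an unadjusted p under 0.05, and DESeq2 called 12 higher and 0 lower. When phase calls were replaced by 3 equal groups of cells ordered by S phase list UMIs, and the highest was compared with the lowest, 19 rose and 3 fell, namely Hist1h2bc (-0.94), Hist3h2a (-0.63) and Hist3h2ba (-0.59, against 0.16 by phase calls). With phases called on cells not thinned, Hist3h2ba alone fell (-0.99, edgeR adjusted p = 0.00976). The median log2 change was 2.54, or 2.21 with the 4 members without a G1 UMI at their lower bound. Of all calls in this comparison 62.4% were higher in S with edgeR and 51.4% with DESeq2. Hist1h1b had 340 and 359 CPM in S cells of KO and 344 and 437 CPM of WT, against 8.29 and 18.9 CPM in G1 cells of KO and 8.74 and 15.6 CPM of WT (log2 change 5.02, SE 0.30, edgeR adjusted p = 2.18e-08). Hist1h2ap rose by 5.68 (SE 0.39), with 0 and 0 G1 UMIs in KO and 4 and 0 in WT, and Hist1h4i by 2.15 (SE 0.22). Hist1h1a, with 1 and 1 G1 UMIs in KO and 1 and 0 in WT, had a ratio of 14.6 (95% counting interval 4.95 to 70.9). Hist1h2ab, without a UMI in G1, was at least 5.03-fold higher in S, by a floor of 3 UMIs over the 4 libraries.

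Hist1h2bc was again high in G1 of mesenchymal-like cells, and most so in 1 library. It had 21.7 and 34.6 CPM in S cells of KO and 28.7 and 28.9 CPM of WT, against 182 and 52.9 CPM in G1 cells of KO and 49.5 and 15.6 CPM of WT (log2 change -1.58, edgeR adjusted p = 0.175). WT replicate 2 went the other way, on 2 UMIs in G1. Over the same G1 cells the mesenchymal list summed to 9170 and 2670 CPM in KO and 5820 and 1630 CPM in WT, the same order of libraries except for KO replicate 2 and WT replicate 1, and its part in the Hist1h2bc values was not tested. In S cells that list summed to 1760 and 1200 CPM in KO and 1460 and 1180 CPM in WT, below G1 in every library. The S and G1 cells of this class thus differed in markers of the class, beside each S over G1 change given for it. The difference of the S over G1 change between mesenchymal-like and endothelial-like cells passed for 0 of 43 members with edgeR, where 4.46% of all genes passed, and for 0 with DESeq2. An unadjusted p under 0.05 was reached by Hist3h2ba (1.35, edgeR adjusted p = 0.0786) and Hist1h2bc (-1.16, edgeR adjusted p = 0.248). Without the filter on low counts both passed, Hist3h2ba at 1.51 (edgeR adjusted p = 0.0064) and Hist1h2bc at -1 (edgeR adjusted p = 4.25e-05).

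Between S cells of mesenchymal-like and endothelial-like cells of the same libraries, 33 of 49 members were higher in mesenchymal-like cells, where 32% of all 13181 genes were (edgeR, library as a block), with a median log2 difference of 0.95. In edgeR 0 were lower, where 33.4% of all genes were, and 0 lower members had an unadjusted p under 0.05, while DESeq2 called 23 higher and 0 lower. Hist3h2ba stood out, with 9.13 and 20.9 CPM in mesenchymal-like S cells of KO and 12.9 and 18.4 CPM of WT, against 1.38 and 1.55 CPM in endothelial-like S cells of KO and 1.21 and 0.906 CPM of WT. All mesenchymal-like values lay above all endothelial-like values, and the log2 difference was 3.37 (SE 0.25, edgeR adjusted p = 4.06e-13). Hist1h4i was higher by 0.99 (SE 0.07, edgeR adjusted p = 3.5e-13), Hist1h4d by 0.95 (SE 0.11), Hist1h2ae by 0.70 (SE 0.06) and Hist1h1b by 0.58 (SE 0.08, edgeR adjusted p = 0.000681). All 8 H4 genes tested were higher, against 4 of 9 H3 genes. The values that did not pass include Hist1h2bc (-0.18, edgeR adjusted p = 0.130), Hist1h1c (0.17, adjusted p = 0.227) and Hist2h2ac (0.34, adjusted p = 0.0829). Without KO replicate 2, Hist1h2bc passed as lower (-0.28, edgeR adjusted p = 0.0412) and Hist2h2ac as higher (0.50, edgeR adjusted p = 0.0163). The S phase list also differed, at 6460 to 6970 CPM in mesenchymal-like and 5060 to 5260 CPM in endothelial-like S cells, and its part in the histone difference was not tested.

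Germ-cell-like cells, led by the germ cell genes Dppa3 and Pou5f1, had no G1 call, and their histone RNA differed between S and G2/M. The sum was 821 and 938 CPM in S cells of KO and 1029 and 1218 CPM of WT, against 422 and 397 CPM in G2/M cells of KO and 471 and 518 CPM of WT. The S values were 1.94 to 2.36 times those of G2/M in germ-cell-like cells, against 1 to 1.37 times in endothelial-like cells, and the ranges do not overlap. Phase calls used the same limits in all classes, so any G1 cells among the germ-cell-like cells were called S or G2/M. In G2/M cells the S phase list summed to 5160 to 5380 CPM in germ-cell-like and 3210 to 3410 CPM in endothelial-like cells. The phase groups of the 2 classes are thus unlike by this list, and its part was not tested. In a comparison added after seeing the data, 18 of 25 members were higher in S than in G2/M, where 6.44% of all 9367 genes were, with a median of 1.07. With edgeR 0 were lower, where 4.25% of all genes were, and 0 lower ones had an unadjusted p under 0.05. DESeq2 was not run on germ-cell-like cells. Hist1h1b had 196 and 255 CPM in S cells of KO and 229 and 365 CPM of WT, against 77.3 and 89.7 CPM in G2/M cells of KO and 77.3 and 137 CPM of WT (log2 change 1.5, SE 0.06, edgeR adjusted p = 3.33e-74). Hist1h2ap changed by 1.52 (SE 0.08), Hist1h2ae by 1.48 (SE 0.12), Hist2h2ac by 1.64 (SE 0.24) and Hist1h2bc by 0.71 (edgeR adjusted p = 1.41e-11).

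The S over G2/M change was larger in germ-cell-like than in endothelial-like cells for 19 of 48 members, where 2.57% of all 13266 genes had a larger change, and smaller for 0, where 1.93% had a smaller one (edgeR interaction term). Of the smaller changes, 0 had an unadjusted p under 0.05. The median log2 difference of the changes was 1.13 over these members and -0.02 over all genes. It was 1.69 for Hist3h2a (SE 0.27, edgeR adjusted p = 7.29e-06), 1.40 for Hist1h2ap (SE 0.11, edgeR adjusted p = 9.99e-10), 1.28 for Hist1h2ae (SE 0.21) and 1.15 for Hist1h1b (SE 0.18, edgeR adjusted p = 0.00499). Hist1h1a (0.53, edgeR adjusted p = 0.0984) and Hist1h2bc (0.53, adjusted p = 0.0625) did not pass. Leaving out KO replicate 2 gave 10 such members, leaving out WT replicate 1 gave 13, and leaving out WT replicate 2 gave 6. Hist1h1b no longer passed without WT replicate 1 (1.09, edgeR adjusted p = 0.0679) or WT replicate 2 (1.12, adjusted p = 0.0876), nor Hist1h2ae without WT replicate 2 (1.12, adjusted p = 0.158).

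In S cells, 31 of 48 members were higher in germ-cell-like than in endothelial-like cells, where 36.3% of all 12761 genes were, and 2 were lower, where 41.8% were, with a median log2 difference of 0.94 against -0.09 over all genes. Hist1h2bc, which was low in S in endothelial-like cells, had 79.6 and 90.9 CPM in germ-cell-like S cells of KO and 78.6 and 109 CPM of WT, against 22.7 and 26.7 CPM in endothelial-like S cells of KO and 32.1 and 30.7 CPM of WT (log2 difference 1.62, SE 0.09, edgeR adjusted p = 3e-69). Hist3h2ba was again higher, by 2.93 (SE 0.29, edgeR adjusted p = 1.06e-22), at 9.67 and 10.2 CPM in germ-cell-like S cells of KO and 7.67 and 11.9 CPM of WT. Among linker genes, Hist1h1d was higher by 1.38 (SE 0.15), Hist1h1a by 1.30 (SE 0.11), Hist1h1c by 0.70 and Hist1h1e by 0.56, while Hist1h1b had 0.12 (edgeR adjusted p = 0.0592). Hist1h1t had 12 UMIs in germ-cell-like and 6 in the far more numerous endothelial-like S cells, a ratio of 27.9 in CPM (95% counting interval 9.71 to 90.7). The 2 members that were lower were Hist1h4i (-0.75, SE 0.12, edgeR adjusted p = 1.82e-10), with 24.5 and 27.4 CPM in germ-cell-like S cells of KO and 23.0 and 32.8 CPM of WT, and Hist1h2ae (-0.25, SE 0.09). Here too the S phase list was higher, at 7290 to 7610 CPM, as was the G2/M list, at 7430 to 8660 CPM against 4780 to 5240 CPM, and their part was not tested.

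**Figure D5:**
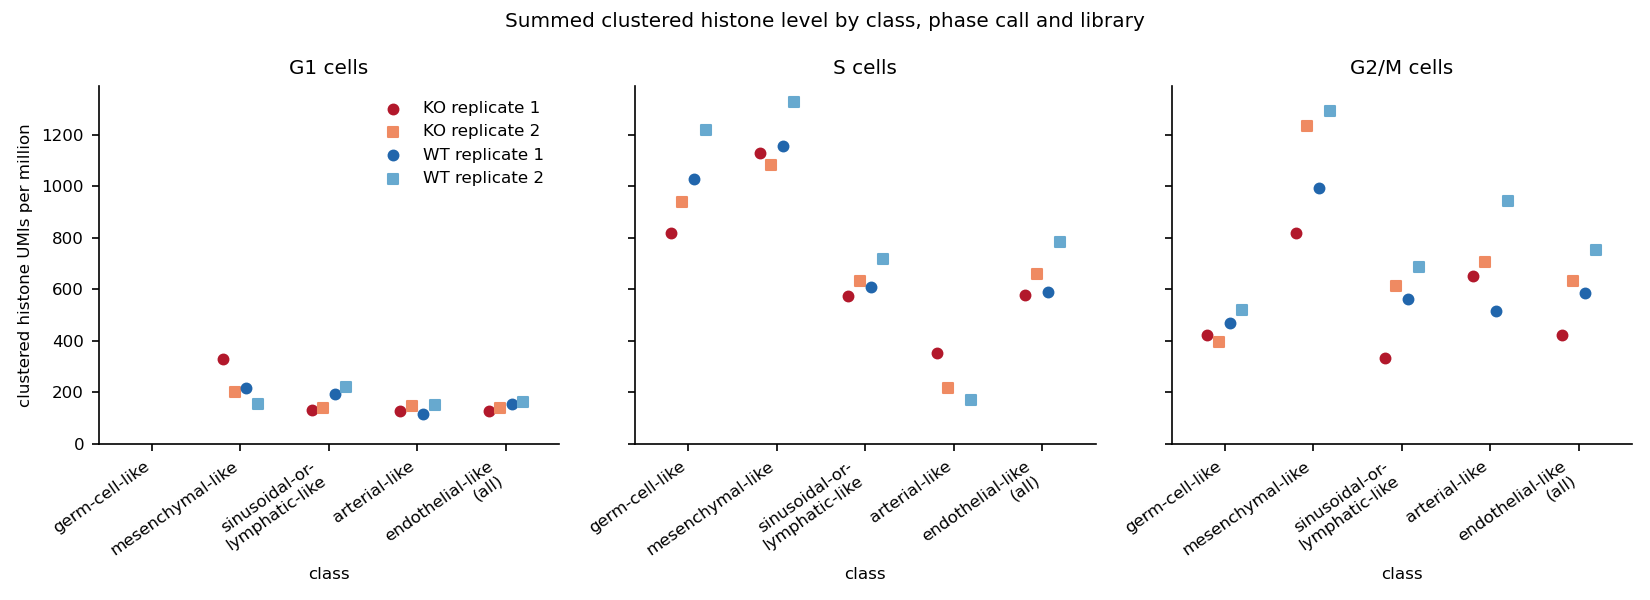
Summed clustered histone CPM in germ-cell-like, mesenchymal-like, sinusoidal-or-lymphatic-like, arterial-like and all endothelial-like cells, for G1 (left), S (middle) and G2/M cells (right). Each point is 1 library with at least 10 cells of that class and phase call. Other classes are not drawn. S cells of mesenchymal-like and germ-cell-like classes lie above those of endothelial-like cells, and germ-cell-like cells lie lower in G2/M (397 to 518 CPM) than in S (821 to 1218 CPM).

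Of 10 tested genes listed as replication-independent variants, 9 were higher in mesenchymal-like than endothelial-like S cells and 1 lower (median log2 difference 0.56). Of all genes 32% were higher and 33.4% lower. H2afy2, a macroH2A gene, had 2.55 and H1fx, a linker variant gene, 1.55. Of 14 genes of histone transcription and 3′ processing, 3 were higher and 5 lower, with Eri1 at -0.66 and Lsm11 at -0.95. In germ-cell-like over endothelial-like S cells 5 variants were higher and 5 lower of 10, where 36.3% of all genes were higher and 41.8% lower, among them H2afx at 1.14, H1f0 at -1.79 and H2afz at -0.87. There 8 of 14 processing genes were higher and 3 lower, with Zfp473, which binds the U7 particle, at 4.72. The genes used to call phases, the gene of SLBP among them, were left out here too.

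Classes with fewer cells are given by their sums. In neural-like cells (232 and 75 in KO, 47 and 61 in WT) the sum in G1 was 327 and 520 CPM in KO and 360 and 581 CPM in WT, and S was 1.91 to 2.94 times G1. In hemogenic-or-hematopoietic-like cells S was 3.61 to 3.98 times G1. Both ratios come from the 3 libraries with at least 10 cells in each phase, which WT replicate 1 lacked. Megakaryocyte-like cells (16 and 42 in KO, 30 and 23 in WT), singled out after their values were seen, had 965 and 1210 CPM in KO and 780 and 1065 CPM in WT over all phases. In KO replicate 2 and WT replicate 2 a few cells carried much of this: at 5000 UMIs per cell the highest cell had 150 histone UMIs in KO replicate 2 and 130 in WT replicate 2. The highest cell had 29 in KO replicate 1 and 11 in WT replicate 1, and the median was 3 in each of the 4 libraries, against 3 to 4 in mesenchymal-like cells. In them Hist1h2bc alone made up 268.5 and 210 CPM in KO and 29.9 and 192 CPM in WT, and Hist1h1c 115 and 343 CPM in KO and 36.8 and 287 CPM in WT. WT replicate 1 was the lowest for both genes, and the genotypes overlap for Hist1h1c. With 16 to 42 cells per library no test was made.

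No clustered histone gene passed between genotypes with all 4 libraries. In endothelial-like cells the histone sum was 437 and 535 CPM in KO and 516.5 and 643 CPM in WT, with means of 485.9 ± 69.4 CPM in KO and 579.6 ± 89.2 CPM in WT (SD, n = 2 each). The difference of -93.7 CPM was about the spread within a group, the groups overlap, and the exact two-sided permutation test gave p = 0.667, where 0.33 is the smallest p that 2 libraries against 2 allow. Leaving out KO replicate 1 or 2 gave -44.6 and -143 CPM, and leaving out WT replicate 1 or 2 gave -157 and -30.6 CPM. In edgeR 0 of 59 members passed, where 0.15% of all 14635 genes did. DESeq2 also called 0, and 2 members, Hist2h3c1 (-0.97) and Hist2h4 (-0.68), had an unadjusted p under 0.05 in edgeR. The median log2 change was -0.25, and 9 of 59 were positive. Leaving out KO replicate 1 or 2 gave medians of 0 and -0.50, and leaving out WT replicate 1 or 2 gave -0.42 and 0.02, so its direction rests on single libraries. Among 65 members with a UMI in these cells, both KO values lay below both WT values for 22, above for 2 (Hist1h3b and Hist2h3b) and overlapped for 41. Of all 21637 genes with a UMI there, 12.5% had both KO values below both WT values and 8.42% above.

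For the 3 members with the most UMIs, the libraries of a group differed as much as the groups did. Hist1h1b had 126 and 179 CPM in KO and 133 and 214 CPM in WT (log2 change -0.17, SE 0.24). Hist1h2ap had 78.2 and 54.5 CPM in KO and 119 and 63.8 CPM in WT (-0.44, SE 0.27), and Hist1h2ae 42.1 and 54.0 CPM in KO and 38.2 and 82.2 CPM in WT (-0.31, SE 0.31). For all 3 the groups overlap. Hist1h2bc, at 21.1 and 29.7 CPM in KO and 31.6 and 33.2 CPM in WT, had groups that do not overlap, with a log2 change of -0.34 (SE 0.18). The edgeR adjusted p was 1 for these 4 genes. Without WT replicate 1, Hist1h2ae passed as the sole member (-0.77, edgeR adjusted p = 0.0183), and likewise among S cells (-0.75, adjusted p = 0.0390). Without WT replicate 2 its change among S cells had the other sign (0.57, edgeR adjusted p = 0.29).

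The other comparisons of genotype also called no member with edgeR. In S cells of the endothelial-like class 0 of 47 passed, where 0.0315% of all 12713 genes did, with a median of -0.16 and 1 unadjusted p under 0.05, for Hist1h2bg (-1.21). In mesenchymal-like cells 0 of 44 passed (0.00821% of all 12174 genes), with a median of -0.24 and 1 unadjusted p under 0.05, for Hist1h2ac (0.75). DESeq2 called 0 in both. These medians also moved to 0 and -0.02 without KO replicate 1, and to 0.14 and 0 without WT replicate 2. In germ-cell-like cells 0 of 27 passed (0.163% of all genes), with a median of -0.27 and Hist1h2ae (-0.59) under an unadjusted 0.05. In neural-like cells 0 of 15 passed (0% of all genes), with Hist1h2bc (-0.95) under an unadjusted 0.05. In arterial-like cells 0 of 18 passed (0.0179%), with a median of 0.14 and 0 at an unadjusted p under 0.05. In sinusoidal-or-lymphatic-like cells 0 of 28 passed (0.0562%), with a median of -0.32 and 3 at an unadjusted p under 0.05, Hist1h2ac (-0.80), Hist1h3e (-1.08) and Hist1h4i (-0.42). DESeq2 was not run on these last 4 classes. A difference of the S over G1 change between KO and WT passed for 0 of 51 members with edgeR and with DESeq2, where 0.0147% of all genes passed in edgeR. Without the filter on low counts Hist1h2ap passed (0.92, edgeR adjusted p = 0.0238), and without KO replicate 1 it had 1.25 (edgeR adjusted p = 0.0826). There 5 members had an unadjusted p under 0.05, Hist1h2bb (-1.85), Hist1h2bj (-0.78), Hist1h2bk (1.64), Hist1h2bm (-1.16) and Hist1h4j (1.34). Of the 11 histone variants, 16 transcription and processing genes and 23 chaperones tested in endothelial-like cells, 0 passed between genotypes with edgeR or DESeq2, and 0 had an unadjusted p under 0.05.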

How the data were processed

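The authors deposited UMI counts of each gene in each barcode, not normalised and made with Cell Ranger 3.1.0 per the file headers. Seurat 4 is named in the submitters' processing notes. The genome build, annotation and strand setting were not given in the sources used here. Cells were kept if they had 1000 genes or more and under 10% of UMIs from mitochondria, and doublets were removed at 0.8% per 1000 barcodes. Cells were clustered without histone, phase list and mitochondrial genes (2000 variable genes, 40 components, 20 neighbours, Leiden resolution 1) with leidenalg 0.10.2. Clusters were named from fixed markers. Phases were called with scanpy 1.11.5 on cells thinned to 5000 UMIs. Counts were summed per library, class and phase and tested over all genes with edgeR 4.0.16 (quasi-likelihood, TMM, low counts filtered) in R 4.3.3. DESeq2 1.42.0, other filters, doublets kept, a replicate block and leaving out each library were alternatives. Counts of 14574 genes were simulated independently, with the dispersion trend of all genes. There the genotype test in endothelial-like cells called 69.1% of 97 genes changed 2-fold and 94.9% of 99 changed 4-fold. It called 0.1% of unchanged ones. The members' own spread, and spread that they share between libraries, was not simulated, so these shares need not hold for them. Named members are the 12 highest in endothelial-like cells, every H1 gene with at least 10 UMIs, and up to 5 members per direction for S over G1 and up to 5 between classes. Other members named beside a count of 5 or fewer were picked after their values were seen. Members and lists were chosen with earlier results of these data known. Sequences came from GENCODE and RefSeq. Intervals and floors cover counting error only.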

Additional observations from a re-analysis of the deposited data

Results flagged for a closer look

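The S over G2/M change differed between classes by an interaction test: 19 of 48 clustered histone genes had a larger change in germ-cell-like than in endothelial-like cells (edgeR adjusted p under 0.05), where 2.57% of all genes did. The count was 6 without WT replicate 2, 10 without KO replicate 2 and 13 without WT replicate 1. Hist1h2ap had a log2 difference of 1.40 (SE 0.11). The germ-cell-like class also differed in its S phase list, at 7290 to 7610 CPM in germ-cell-like S cells and 5060 to 5260 CPM in endothelial-like S cells. Its G2/M list was at 7430 to 8660 CPM in germ-cell-like S cells and 4780 to 5240 CPM in endothelial-like S cells. In G2/M cells the S phase list was at 5160 to 5380 CPM in germ-cell-like and 3210 to 3410 CPM in endothelial-like cells. The part of these lists in the result was not tested.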

How the results depend on the processing

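Of 101 results on named genes that passed, 81 kept their direction and side of the threshold under every alternative run, and of 680 alternative values 629 kept both, 51 no longer passed and 0 reversed. Of 104 results on named genes that did not pass, 54 had the other sign under some alternative (86 of 813 values), among them Hist1h2ae by genotype in S cells (-0.75 without WT replicate 1, 0.57 without WT replicate 2). Of these values 26 passed, 2 of them with the other sign, both of Hist3h2ba in S over G1 of mesenchymal-like cells. Members higher or lower in S over G1 in endothelial-like cells numbered 43 to 54 over the alternatives, against 49. In S over G2/M, 12 members passed, against 4 with DESeq2 and 5 to 14 with 1 library left out. The count larger in germ-cell-like cells by interaction was 6 to 22 with 1 library left out, against 19. For genotype, 0 to 1 member passed in endothelial-like cells with 1 library left out, and 0 to 1 in S cells. Without a filter on low counts, the difference in S over G1 between classes passed for 2 members (Hist3h2ba 1.51 and Hist1h2bc -1) and between genotypes for 1 (Hist1h2ap, 0.92, edgeR adjusted p = 0.0238). The KO minus WT difference of the histone sum was -93.7 CPM, -101 with doublets kept, -72.8 without Hist1h1b, -66.3 in S cells, -23.8 in G1 cells and -157 to -30.6 with 1 library left out. The cause of these changes was not tested. With the replicate block, 0 members passed by genotype in endothelial-like, S phase endothelial-like and mesenchymal-like cells (edgeR, medians -0.23, -0.13 and -0.23). Same-numbered libraries deviated together (correlation 0.475 over 13132 genes, 0.739 over 50 members), but with 2 pairs this does not pair them. Low counts limit what can be said of the 16 members too rare to test and of the G1 cells of mesenchymal-like cells. With 2 libraries per group the permutation test of the sum cannot go below 0.33.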
